A study of Mus musculus with 6 samples.

Results

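Pleiotrophin (Ptn), midkine (Mdk) and 2 of their receptors, Ptprz1 and Sdc3, were examined in whole mouse retina at postnatal day 7. The genes were taken by name from the gene table, 4 of 13072 genes, and their isoforms by gene name from the transcript table, 10 of 26721 transcripts. They were chosen with the comparison described here already known, so their own values are given as a description, with no test. The retinas came from mice labelled CTGF-/-, described as lacking connective tissue growth factor after inducible Cre/lox deletion (3 libraries), and from mice labelled WT (3 libraries). Both groups were C57BL/6 mice of the same age. The labels do not name the promoter that drives Cre, the inducing agent or the deleted exons, and do not say whether the WT mice carried Cre or the floxed allele. Polyadenylated RNA was sequenced from both ends in strand-specific libraries. The labels do not say whether the 3 libraries of a group are 3 animals; the p-values below therefore measure only library-to-library spread, which may be technical.

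Ptn and Mdk are the members of one small family of secreted, heparin-binding growth factors, which attach to the sulfated sugar chains of cell-surface and matrix proteoglycans. Ptprz1 is a receptor-type tyrosine phosphatase that is itself a chondroitin sulfate proteoglycan; binding of Ptn lowers its phosphatase activity. Sdc3, or N-syndecan, is a heparan sulfate proteoglycan of neurons that serves as a receptor for both factors. In the nervous system these genes are best known from progenitors, glia and growing axons.

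The libraries expressed markers of the labelled tissue. Rlbp1, a Müller glia gene, averaged 64.2 ± 4.11 FPKM (fragments scaled by feature length and library total) in CTGF-/- and 65.2 ± 5.64 FPKM in WT (SD, n = 3 each). Ctgf itself was weakly expressed, at 0.587, 1.0 and 0.526 FPKM in CTGF-/- replicates 1, 2 and 3 and at 0.932, 0.777 and 1.51 FPKM in WT replicates 1, 2 and 3. The groups overlapped, since the library labelled CTGF-/- replicate 2 lay above 2 of the 3 WT libraries, and limma gave an adjusted p of 0.571. Because the deleted exons are not named, this gene value may include sequence outside them, and the groups are used here as labelled. The gene FPKM summed to between 217674 and 230474 in CTGF-/- libraries and between 208436 and 216436 in WT libraries. CTGF-/- replicate 2 listed 1875 transcripts at 0, against 716 to 861 in the other 5 libraries. The 7 lens markers summed to 141 to 2359 FPKM in CTGF-/- libraries and to 294, 0.993 and 1.28 FPKM in WT replicates 1, 2 and 3, so 2 WT libraries were nearly free of lens RNA and 4 libraries were not.

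The core of each ligand's coding sequence is shown because it makes the family relation visible: it runs 5′ to 3′ from the first to the last codon for cysteine, the amino acid that forms the disulfide bridges of the folded proteins, and the cysteine codons (TGT and TGC) are in capitals. The sequences are those of GENCODE M21 on GRCm38. Ptn lies on the minus strand of chromosome 6 (ENSMUSG00000029838.11, chr6:36714929-36810220), and the stretch shown covers codons 47 to 141, spliced from chr6:36741306-36743477. Mdk lies on the minus strand of chromosome 2 (ENSMUSG00000027239.14, chr2:91929805-91932297), and the stretch shown covers codons 34 to 123, spliced from chr2:91930846-91931231.
Ptn: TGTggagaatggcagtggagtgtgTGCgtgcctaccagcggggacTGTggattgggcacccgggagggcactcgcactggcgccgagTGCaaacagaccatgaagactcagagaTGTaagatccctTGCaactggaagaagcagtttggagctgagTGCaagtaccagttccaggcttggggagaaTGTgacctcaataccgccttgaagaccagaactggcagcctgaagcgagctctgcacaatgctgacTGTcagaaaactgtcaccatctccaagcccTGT
Mdk: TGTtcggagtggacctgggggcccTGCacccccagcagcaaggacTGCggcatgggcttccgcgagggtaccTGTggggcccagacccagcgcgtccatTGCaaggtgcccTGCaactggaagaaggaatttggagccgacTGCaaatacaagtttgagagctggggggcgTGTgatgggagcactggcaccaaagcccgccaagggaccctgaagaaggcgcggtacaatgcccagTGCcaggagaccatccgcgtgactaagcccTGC
The whole coding sequences encode 168 amino acids for Ptn and 140 for Mdk. Each holds 10 cysteine codons, all within the stretch shown, of which 9 were aligned with one another. The alignment compared bases and its count depends on where gaps were placed, so it does not show that a cysteine is unshared. Of 419 aligned bases of the whole coding sequences 278 were identical, or 66.3%.

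Ptn, the more abundant ligand, was lower in CTGF-/- retinas. Its gene FPKM was 47.0, 40.6 and 45.7 in CTGF-/- replicates 1, 2 and 3, and 53.1, 52.4 and 53.7 in WT replicates 1, 2 and 3. All CTGF-/- libraries lay below all WT libraries, and CTGF-/- replicate 2 was the lowest. Of all genes tested 10.9% had such an order of libraries, and nothing is read from this, since the 4 genes were chosen on this comparison. The means were 44.4 ± 3.38 FPKM in CTGF-/- and 53.1 ± 0.634 FPKM in WT (SD, n = 3 each), a ratio of 0.837. The difference on the log2(FPKM + 1) scale was −0.25 with a standard error (SE) of 0.08. The median difference of all 12915 genes tested was −0.02 on that scale. SE values here and below come from limma's fit, which draws on the variance of all genes tested. They can differ from the spread of a gene's own libraries. In bulk RNA, fewer cells of a type and less RNA per cell cannot be told apart. A single Ptn isoform was listed, Ptn-201, with 5 exons and 1614 bases, and it accounted for 98.9 to 99.8% of the gene value in a library, the rest coming from isoforms not analysed here. Its isoform FPKM was 99.8, 85.4 and 96.9 in CTGF-/- replicates 1, 2 and 3 and 113, 111 and 114 in WT replicates 1, 2 and 3. Isoform FPKM exceed gene FPKM because the gene value is spread over the 3433 bases of all annotated Ptn exons.

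**Figure D1:**
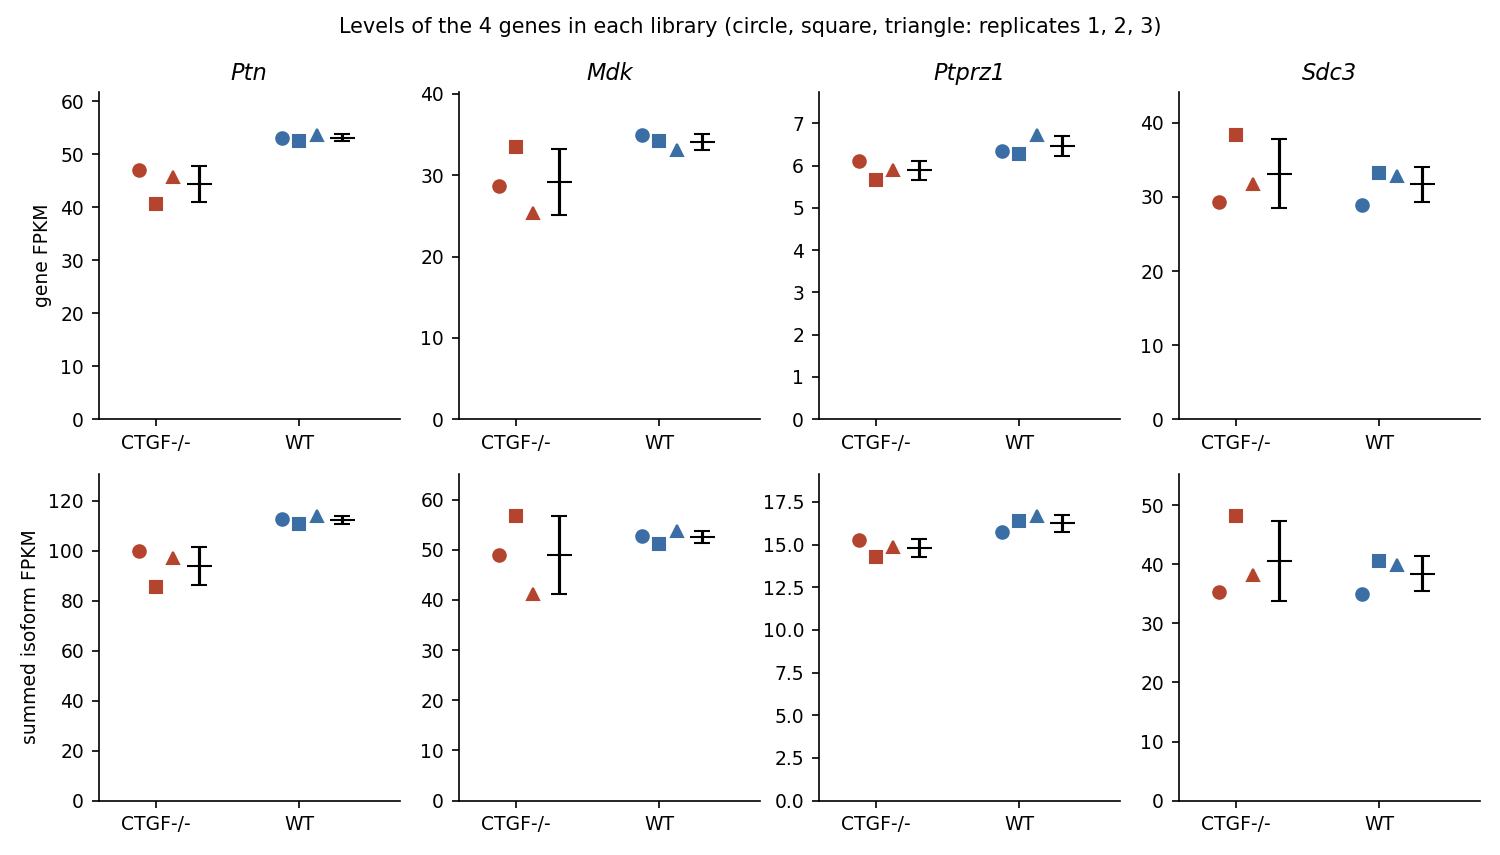
Levels of Ptn, Mdk, Ptprz1 and Sdc3 in each library as gene FPKM (upper row) and as the sum of listed isoform FPKM (lower row), with CTGF-/- libraries in red, WT libraries in blue, and black marks for the mean and SD of 3 libraries. The groups are apart for Ptn and Ptprz1 on both scales; those of Mdk and Sdc3 overlap, with CTGF-/- replicate 2 (square) the highest CTGF-/- library for both.

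Mdk, the second ligand, averaged 29.2 ± 4.07 gene FPKM in CTGF-/- and 34.1 ± 0.967 gene FPKM in WT (SD, n = 3 each). The libraries had 28.7, 33.5 and 25.4 gene FPKM in CTGF-/- replicates 1, 2 and 3 and 35.0, 34.2 and 33.1 gene FPKM in WT replicates 1, 2 and 3. The groups overlapped through CTGF-/- replicate 2, which lay above WT replicate 3. The difference was −0.23 on the log2(FPKM + 1) scale (SE 0.11), −0.33 without CTGF-/- replicate 2 and −0.13 without CTGF-/- replicate 3.

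The size of that difference depended on how the isoforms of Mdk were weighed. A listed gene value equals the sum of isoform FPKM weighted by isoform length and divided by the length of all exons of the gene, which held within 0.1% in 1718 of 1719 genes whose annotated isoforms were all listed. A shift towards a shorter isoform therefore lowers the gene FPKM at an equal number of transcripts. Summed without length weights, the Mdk isoforms came to 49.1, 56.7 and 41.2 FPKM in CTGF-/- replicates 1, 2 and 3 and to 52.7, 51.2 and 53.8 FPKM in WT replicates 1, 2 and 3. On this scale the difference was −0.11 (log2), and CTGF-/- replicate 2 was the highest of the 6 libraries. Of 4110 genes with at least 2 listed isoforms and a mean of at least 5 FPKM, 17.8% had a gap between the scales at least as large as that of Mdk, so such a gap was not unusual.

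All 4 listed Mdk isoforms have the same coding sequence, whose core is printed above, and share 3 identical exons. They differ in the first, noncoding exon and in how far the last exon extends. Mdk-201 starts furthest upstream, with a first exon of 368 bases at chr2:91931930-91932297, and measures 1054 bases. Mdk-202 starts 517 bases downstream of it with a first exon of 87 bases, Mdk-203 starts 598 bases downstream with a first exon of 166 bases, and Mdk-204 starts 609 bases downstream with a first exon of 62 bases.

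**Figure D2:**
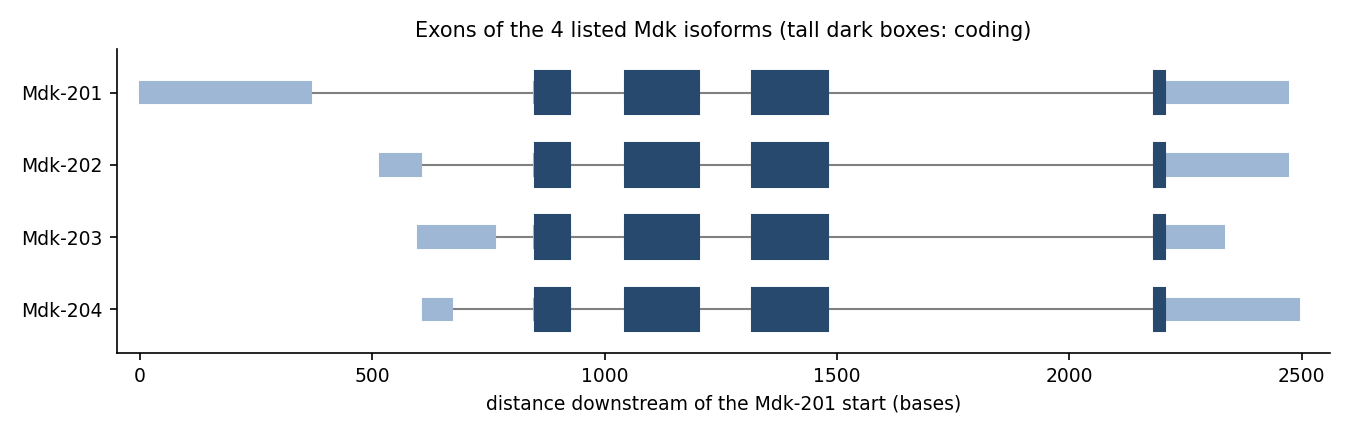
Exons of the 4 listed Mdk isoforms, drawn to scale by distance in bases downstream of the start of Mdk-201; tall dark boxes are coding and low pale boxes are noncoding. The isoforms share the coding exons, and their first exons start at 0, 517, 598 and 609 bases.

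Mdk-201, the isoform with the upstream first exon, had 1.28, 2.43 and 7.44 FPKM in CTGF-/- replicates 1, 2 and 3, against 20.7, 21.2 and 9.31 FPKM in WT replicates 1, 2 and 3. All CTGF-/- libraries were below all WT libraries, but CTGF-/- replicate 3 and WT replicate 3 were close to each other. The mean in CTGF-/- was 3.72 ± 3.28 FPKM and in WT 17.1 ± 6.72 FPKM (SD, n = 3 each), a ratio of 0.218. Mdk-201 was the only one of the 10 isoforms in the authors' deposited table of lower transcripts, which holds 263 of 26721 transcripts. That table was made from these same libraries, so it is not separate support. The weakest decrease in that table was a fold change of 0.665. Over all 25082 transcripts tested, 1.73% had, like Mdk-201, all CTGF-/- libraries below all WT libraries and a WT mean at least 2 times the CTGF-/- mean. Mdk was chosen on this same comparison, so nothing is read from that share.

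The main isoform, Mdk-202, showed the reverse order of means with wide spread. It had 41.9, 48.0 and 20.1 FPKM in CTGF-/- replicates 1, 2 and 3 and 27.8, 26.5 and 36.7 FPKM in WT replicates 1, 2 and 3. Replicate 3 of each group ran against the other replicates of its group, so the groups overlapped. Mdk-203 averaged 4.57 FPKM in CTGF-/- and 4.61 FPKM in WT. Mdk-204 had 0.146, 3.11 and 8.84 FPKM in CTGF-/- replicates 1, 2 and 3 and 0.252, 0.212 and 1.10 FPKM in WT replicates 1, 2 and 3, with overlap.

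As a share of summed Mdk isoform FPKM, Mdk-201 took 2.60, 4.29 and 18.1% in CTGF-/- replicates 1, 2 and 3 and 39.3, 41.3 and 17.3% in WT replicates 1, 2 and 3. The mean share was 24.3 percentage points lower in CTGF-/-, yet the shares overlapped, because CTGF-/- replicate 3 exceeded WT replicate 3. Among the 4110 genes with several isoforms, 11.2% had an isoform share that differed by at least 20 points between the groups, and 3.26% did so without overlap. The share of Mdk-202 was 72.9 ± 20.9% in CTGF-/- and 57.6 ± 9.24% in WT (SD, n = 3 each).

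**Figure D3:**
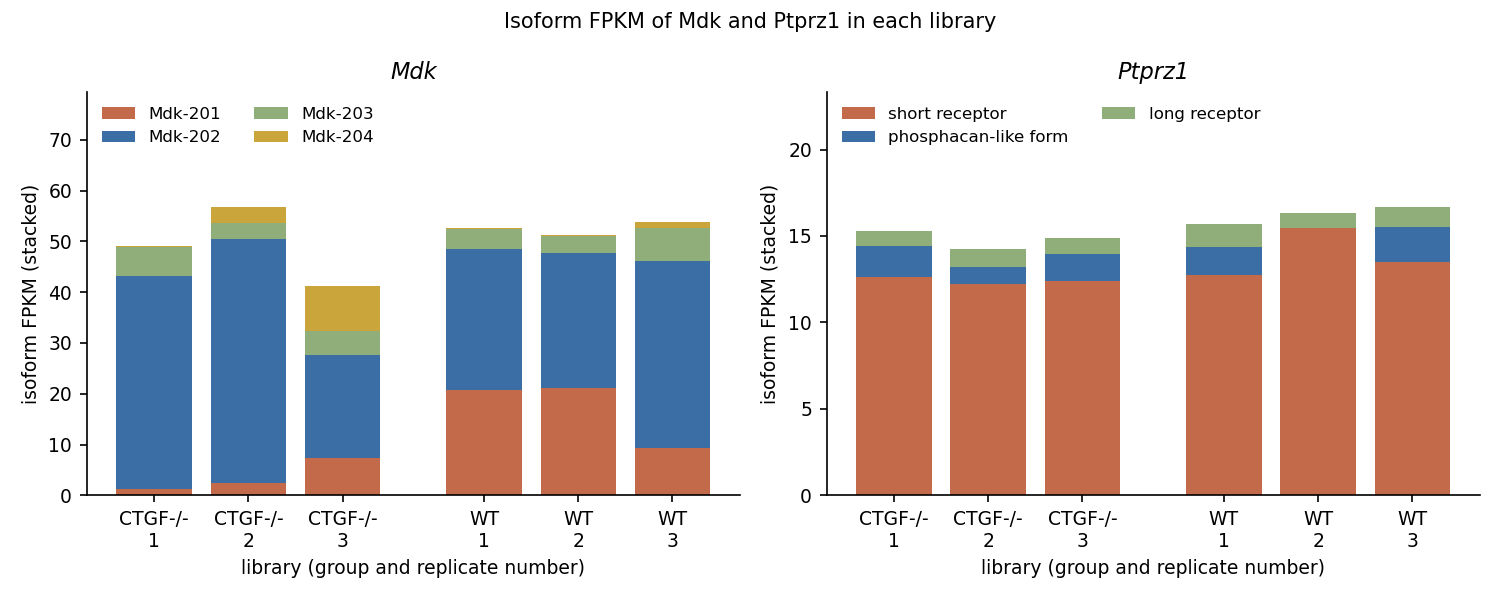
Stacked isoform FPKM of Mdk (left) and Ptprz1 (right) in each library, with the CTGF-/- libraries before the WT libraries and 1 colour per isoform. Mdk-201 is at most 7.44 FPKM in CTGF-/- libraries and at least 9.31 FPKM in WT libraries, while the height of the Mdk columns overlaps; the short receptor makes up most of each Ptprz1 column.

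Ptprz1, the phosphatase receptor (ENSMUSG00000068748.7, chr6:22875502-23052916, plus strand), was the least abundant of the 4 genes per length. Its gene FPKM was 6.11, 5.66 and 5.89 in CTGF-/- replicates 1, 2 and 3 and 6.36, 6.28 and 6.73 in WT replicates 1, 2 and 3. The CTGF-/- libraries all lay below the WT libraries by a small margin, and CTGF-/- replicate 2 was again the lowest. The mean was 5.89 ± 0.224 gene FPKM in CTGF-/- and 6.46 ± 0.241 gene FPKM in WT (SD, n = 3 each), and the difference was −0.11 on the log2(FPKM + 1) scale (SE 0.08), or −0.19 with libraries scaled to equal FPKM totals. Ptn and Ptprz1 both lie on chromosome 6, 13.7 Mb apart.

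The 3 listed Ptprz1 isoforms differ around exon 12, which encodes the large extracellular stretch where many chondroitin sulfate chains attach. The long receptor (ENSMUST00000090568.6, 8068 bases) uses an exon 12 of 3547 bases. The short receptor (ENSMUST00000202102.1, 4947 bases) stops after the first 1000 bases of it and so lacks 2547 bases. The third isoform (ENSMUST00000202579.3, 6871 bases) reads through into the intron, meets a stop codon that ends 5 bases on, and has no exons for the membrane and phosphatase parts, like phosphacan, the secreted form. The bases at that boundary are shown because they tell the isoforms apart: the end of exon 12 is in lower case, and the capitals are the start of exon 13 (receptor forms) or the intron up to the stop codon (phosphacan-like form), all on the plus strand of GRCm38.
Short receptor: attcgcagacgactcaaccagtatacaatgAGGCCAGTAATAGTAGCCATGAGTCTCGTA
Long receptor: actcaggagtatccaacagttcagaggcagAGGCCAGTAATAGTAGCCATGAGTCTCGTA
Phosphacan-like form: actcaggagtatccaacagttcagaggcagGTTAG
The first joins bases at chr6:23000170-23007303, the second at chr6:23002717-23007303, and the third runs unbroken over chr6:23002717-23002751.

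The short receptor was the main form in every library, at 80.9 to 94.6% of summed Ptprz1 isoform FPKM. It had 12.6, 12.2 and 12.4 FPKM in CTGF-/- replicates 1, 2 and 3 and 12.8, 15.5 and 13.5 FPKM in WT replicates 1, 2 and 3, with all CTGF-/- libraries just below all WT libraries. In all, 3 of the 10 isoforms were below WT in every CTGF-/- library, Ptn-201, Mdk-201 and the short receptor, and 7.53% of all transcripts tested were; nothing is read from this, for the reason given for Ptn. The long receptor had 0.847, 1.07 and 0.892 FPKM in CTGF-/- replicates 1, 2 and 3 and 1.36, 0.877 and 1.12 FPKM in WT replicates 1, 2 and 3, and the groups overlapped. The phosphacan-like form had 1.82, 0.985 and 1.59 FPKM in CTGF-/- replicates 1, 2 and 3 and 1.598, 0.00833 and 2.06 FPKM in WT replicates 1, 2 and 3. It was nearly missing from WT replicate 2, the library with the most of the short receptor. The summed isoforms, which like those of Mdk carry no length weights and so move with the division of reads among forms of unequal length, averaged 14.8 ± 0.511 FPKM in CTGF-/- and 16.2 ± 0.486 FPKM in WT (SD, n = 3 each), without overlap.

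Sdc3, the heparan sulfate receptor (ENSMUSG00000025743.14, chr4:130792537-130826319, plus strand), showed no separation of the groups. Its gene FPKM was 29.4, 38.4 and 31.7 in CTGF-/- replicates 1, 2 and 3 and 29.0, 33.3 and 32.9 in WT replicates 1, 2 and 3. CTGF-/- replicate 2 was the highest library, the opposite of its place for Ptn and Ptprz1. The mean was 33.2 ± 4.70 gene FPKM in CTGF-/- and 31.7 ± 2.37 gene FPKM in WT (SD, n = 3 each), and the log2 difference of 0.06 (SE 0.12) turned to −0.05 without CTGF-/- replicate 2, to −0.01 without WT replicate 1 and to −0.02 when libraries were scaled to equal FPKM totals. Its full isoform (ENSMUST00000070478.3) made up 95.03 to 99.4% of summed isoform FPKM, and a short one (ENSMUST00000152591.7) had 0.320, 2.39 and 0.233 FPKM in CTGF-/- replicates 1, 2 and 3 and 0.406, 0.913 and 0.570 FPKM in WT replicates 1, 2 and 3. The antisense genes Gm12970 and Gm26716 overlap Sdc3; the sources used here do not state that strand was used in quantification, so their reads cannot be told apart from those of Sdc3 with certainty. No gene overlaps the other 3.

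Ordered by gene FPKM, which is per length, Ptn was highest in all 6 libraries and Ptprz1 lowest in all 6. The middle places changed with the group: Sdc3 lay above Mdk in the 3 CTGF-/- libraries and Mdk above Sdc3 in the 3 WT libraries, but their ranges overlapped. On summed isoform FPKM Mdk lay above Sdc3 in all 6 libraries. Both ligands were thus listed at higher levels per length than the phosphatase receptor in every library, by either measure. Ranked from the lowest difference, the log2 differences of Ptn, Mdk, Ptprz1 and Sdc3 stood at the 8.99, 11.8, 29.3 and 67.2 percentiles of the 12915 genes tested.

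Across the 6 libraries, log2(FPKM + 1) of Ptn and Ptprz1 moved together (Pearson r = 0.934, and 0.762 after each group's mean was removed). The correlation of Ptn with Mdk was 0.376 over the 6 libraries and −0.793 within groups, and that of Ptn with Sdc3 was −0.576 over the 6 libraries and −0.874 within groups. These values describe 6 points that share group, library total and the standing of CTGF-/- replicate 2. Of 7879 genes with a mean of at least 5 FPKM, those most like Ptn over the 6 libraries were Rimklb (r = 0.995), Fbxl17 (r = 0.994) and Papd4 (r = 0.992). Those most like Mdk were Stmn1 (r = 0.990), Trmt6 (r = 0.986) and Foxk1 (r = 0.983). Those most like Ptprz1 were Mapk9 (r = 0.990), Higd1a (r = 0.988) and Bmpr1a (r = 0.980), and those most like Sdc3 were Tbc1d9b (r = 0.998), Ndn (r = 0.996) and Csdc2 (r = 0.993). Stmn1, which encodes a tubulin-binding protein of dividing cells and young neurons, had 209, 257 and 179 FPKM in CTGF-/- replicates 1, 2 and 3 and 257, 251 and 242 FPKM in WT replicates 1, 2 and 3.

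Marker lists of retinal cell types were read in the same libraries, first those known to express these genes. Genes are counted as lower by mean log2(FPKM + 1), which held for 55.1% of all genes tested. Progenitor markers were lower in CTGF-/- for 10 of 10 genes, of which only Mcm3 was without overlap. Some differences were small, such as −0.05 for Lhx2 and −0.07 for Hes5. Their summed level was 192.5 to 201.04 FPKM in CTGF-/- and 196.6 to 269.4 FPKM in WT, with overlap through WT replicate 3. Müller glia markers were lower for 5 of the 10 genes in the table, with sums of 530 to 564 FPKM in CTGF-/- and 528 to 584 FPKM in WT. Of these genes only Glul was without overlap, and it was lower in CTGF-/-. Astrocyte markers were lower for 3 of 6 genes, with sums of 22.4 to 37.6 FPKM in CTGF-/- and 24.3 to 26.9 FPKM in WT. The highest sum, in CTGF-/- replicate 2, included 21.5 FPKM of Slc1a2. Gfap and Pdgfra were lower in CTGF-/- without overlap, and the other astrocyte genes overlapped. Endothelial markers were lower for 9 of 9 genes, with sums of 38.4 to 40.0 FPKM in CTGF-/- and 47.2 to 55.9 FPKM in WT, without overlap. Most of each sum was Kdr, at 27.3 to 30.6 FPKM in CTGF-/- and 32.3 to 38.5 FPKM in WT. Taken singly, only Kdr and Flt1 were without overlap. Markers of other cell types differed in both directions. Horizontal cell markers were lower for 3 of 3 genes, with sums of 4.70 to 5.91 FPKM in CTGF-/- and 6.81 to 8.70 FPKM in WT, without overlap. Singly, only Onecut1 was without overlap, while Lhx1 and Calb1 overlapped. Cone markers summed to 92.1 to 109 FPKM in CTGF-/- and 73.6 to 85.3 FPKM in WT, without overlap, although 1 of 3 genes was lower. Rod markers were lower for 0 of 4 genes, with sums of 517 to 584 FPKM in CTGF-/- and 405 to 488 FPKM in WT, without overlap. The sums of the remaining lists with genes in the table overlapped between the groups. In these lists Slc17a6 and Gad1 were lower in CTGF-/- without overlap, and C1qa, Tyr and Crybb2 were higher without overlap. Pigment epithelium markers were lower for 0 of 5 genes. Erythroid markers summed to 169, 323 and 138 FPKM in CTGF-/- replicates 1, 2 and 3 and to 188, 94.6 and 612 FPKM in WT replicates 1, 2 and 3. No marker read in these lists was at 0 in every library. Some listed markers, such as Aqp4, Abca8a and Emcn, were not in the gene table used here. Only 3 of 9 pericyte and smooth muscle markers and 1 of 4 fibroblast markers were in it. The part of these cell types in the values of Ptn, Mdk and Ptprz1 was not tested.

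The wider pathway was read from 9 lists, of other receptors, partners of Ptprz1 with some relatives, partners of syndecan tails, proteoglycans, and the enzymes that build their sugar chains. Of 102 genes listed, 93 were tested. The lists were chosen with earlier results of these data known, so their counts are a description and nothing is read from them. In limma's fit over all 12915 genes, 0 of the 93 passed an adjusted p of 0.05 in either direction, the smallest adjusted p being 0.533; of all genes 0.0465% passed. At an unadjusted p under 0.05, 10 of the 93 were lower and 0 were higher in CTGF-/-, against 5.49% lower and 3.83% higher of all genes tested. That count of 10 was 4 without CTGF-/- replicate 1, 6 without WT replicate 2, 7 with libraries scaled by median-of-ratios size factors and 17 with equal FPKM totals. Over all genes those scalings gave 540 lower and 658 higher, and 1294 lower and 185 higher, in place of 709 lower and 495 higher. The libraries did not overlap for 19 genes that were lower and for 0 that were higher, against 10.9% and 7.53% of all genes. The median difference of the 93 genes was −0.09 on the log2(FPKM + 1) scale. None of the pathway genes named next passed the adjusted threshold, so their values are given without a call.

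Among 18 other receptors and binding partners of the ligands, 12 had a lower mean log2(FPKM + 1) in CTGF-/-, against 55.1% of all genes tested. The counts for the lists below use the same scale. Itgb1, the beta chain of integrins that bind Mdk, had 27.8, 26.6 and 28.1 FPKM in CTGF-/- replicates 1, 2 and 3 and 33.6, 32.4 and 34.2 FPKM in WT replicates 1, 2 and 3 (limma adjusted p = 0.533). All CTGF-/- libraries were below all WT libraries. Itga4, an alpha chain that pairs with it, averaged 1.12 ± 0.224 FPKM in CTGF-/- and 1.81 ± 0.178 FPKM in WT (SD, n = 3 each). Ncl, or nucleolin, a nucleolar protein that also binds both ligands at the cell surface, was the most abundant of the list, at 51.0 ± 4.39 FPKM in CTGF-/- and 53.2 ± 1.11 FPKM in WT (SD, n = 3 each).

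The list of Ptprz1 surface partners also held relatives of Ptprz1 and of its partner Cntn1, so not every gene in it is a partner. In it 10 of 11 genes were lower in mean log2(FPKM + 1) in CTGF-/-, against 55.1% of all genes tested. An unadjusted limma p under 0.05 was found for 3 of them, Ptprg, Cntn1 and Cntn5. Ptprg, the closest relative of Ptprz1 among receptor phosphatases, had 7.93, 7.24 and 8.98 FPKM in CTGF-/- replicates 1, 2 and 3 and 10.1, 10.01 and 9.80 FPKM in WT replicates 1, 2 and 3, without overlap (log2 difference −0.28, SE 0.09). Cntn1, or contactin-1, a GPI-anchored adhesion protein that binds the extracellular part of Ptprz1, had 15.8, 15.7 and 17.8 FPKM in CTGF-/- replicates 1, 2 and 3 and 18.9, 19.4 and 21.8 FPKM in WT replicates 1, 2 and 3, also without overlap. Cntn5, another contactin, named here after its value was seen, averaged 0.968 ± 0.209 FPKM in CTGF-/- and 1.39 ± 0.185 FPKM in WT (SD, n = 3 each). Ncam1, the neural cell adhesion molecule, was close in the groups, at 70.2 ± 4.60 FPKM in CTGF-/- and 71.0 ± 4.38 FPKM in WT (SD, n = 3 each).

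Genes for proteins that the phosphatase acts on inside the cell were lower for 7 of 11, against 55.1% of all genes tested. Of the 11, 0 had an unadjusted limma p under 0.05. The scaffold gene Magi3 averaged 4.83 ± 0.295 FPKM in CTGF-/- and 5.596 ± 0.125 FPKM in WT. Ctnnb1, which encodes beta-catenin, averaged 60.3 ± 4.39 FPKM in CTGF-/- and 53.5 ± 5.10 FPKM in WT (SD, n = 3 each), with overlap. Among 7 partners of syndecan tails, Cask, a scaffold kinase that binds the syndecan tail through its PDZ domain, had 10.2, 11.2 and 11.7 FPKM in CTGF-/- replicates 1, 2 and 3 and 12.9, 13.3 and 13.6 FPKM in WT replicates 1, 2 and 3, while Gipc1, another PDZ protein, averaged 35.7 ± 8.41 FPKM in CTGF-/- and 29.1 ± 2.18 FPKM in WT (SD, n = 3 each).

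Other proteoglycans that can hold the ligands were lower in mean log2(FPKM + 1) for 6 of 7 genes with heparan sulfate. Lecticans, which carry chondroitin sulfate, were lower for 3 of 3 genes, against 55.1% of all genes tested. Several differences were small, such as −0.03 for Gpc1 and −0.06 for Bcan. The groups did not overlap for 2 of the 7 and 1 of the 3, all lower, against 10.9% of all genes tested. Agrn, the basement membrane protein agrin, averaged 30.7 ± 0.799 FPKM in CTGF-/- and 35.3 ± 3.13 FPKM in WT, and Gpc6, a glypican, averaged 0.934 ± 0.290 FPKM in CTGF-/- and 1.38 ± 0.0549 FPKM in WT (SD, n = 3 each), both without overlap. Vcan, or versican, had 1.88, 1.94 and 2.09 FPKM in CTGF-/- replicates 1, 2 and 3 and 2.36, 2.42 and 3.70 FPKM in WT replicates 1, 2 and 3, so that WT replicate 3 stood above the other WT libraries. Ncan, or neurocan, was the most abundant lectican, at 9.31 ± 1.53 FPKM in CTGF-/- and 9.87 ± 1.32 FPKM in WT (SD, n = 3 each), with overlap.

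Enzymes of the sugar chains were lower in mean log2(FPKM + 1) in part of each list, and no test of a list's direction was made. Those of the shared linker were lower in 3 of 6 genes: Xylt1, which starts the chains, averaged 1.34 ± 0.112 FPKM in CTGF-/- and 1.76 ± 0.250 FPKM in WT, whereas B3gat3, which completes the linker, averaged 42.3 ± 2.64 FPKM in CTGF-/- and 37.7 ± 2.84 FPKM in WT (SD, n = 3 each). Heparan sulfate enzymes were lower in 11 of 17 genes, with Ndst3, an N-sulfating enzyme, at 1.11 ± 0.173 FPKM in CTGF-/- and 1.81 ± 0.309 FPKM in WT, and its abundant relative Ndst1 at 31.8 ± 1.11 FPKM in CTGF-/- and 32.4 ± 1.01 FPKM in WT (SD, n = 3 each). Chondroitin sulfate enzymes were lower in 10 of 13 genes, with Dse, a dermatan sulfate epimerase, at 0.550 ± 0.149 FPKM in CTGF-/- and 0.941 ± 0.269 FPKM in WT, and the chain polymerase Chsy1 at 14.9 ± 0.0749 FPKM in CTGF-/- and 15.0 ± 0.937 FPKM in WT (SD, n = 3 each). By comparison, 55.1% of all genes tested were lower in mean log2(FPKM + 1) in CTGF-/-.

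**Figure D4:**
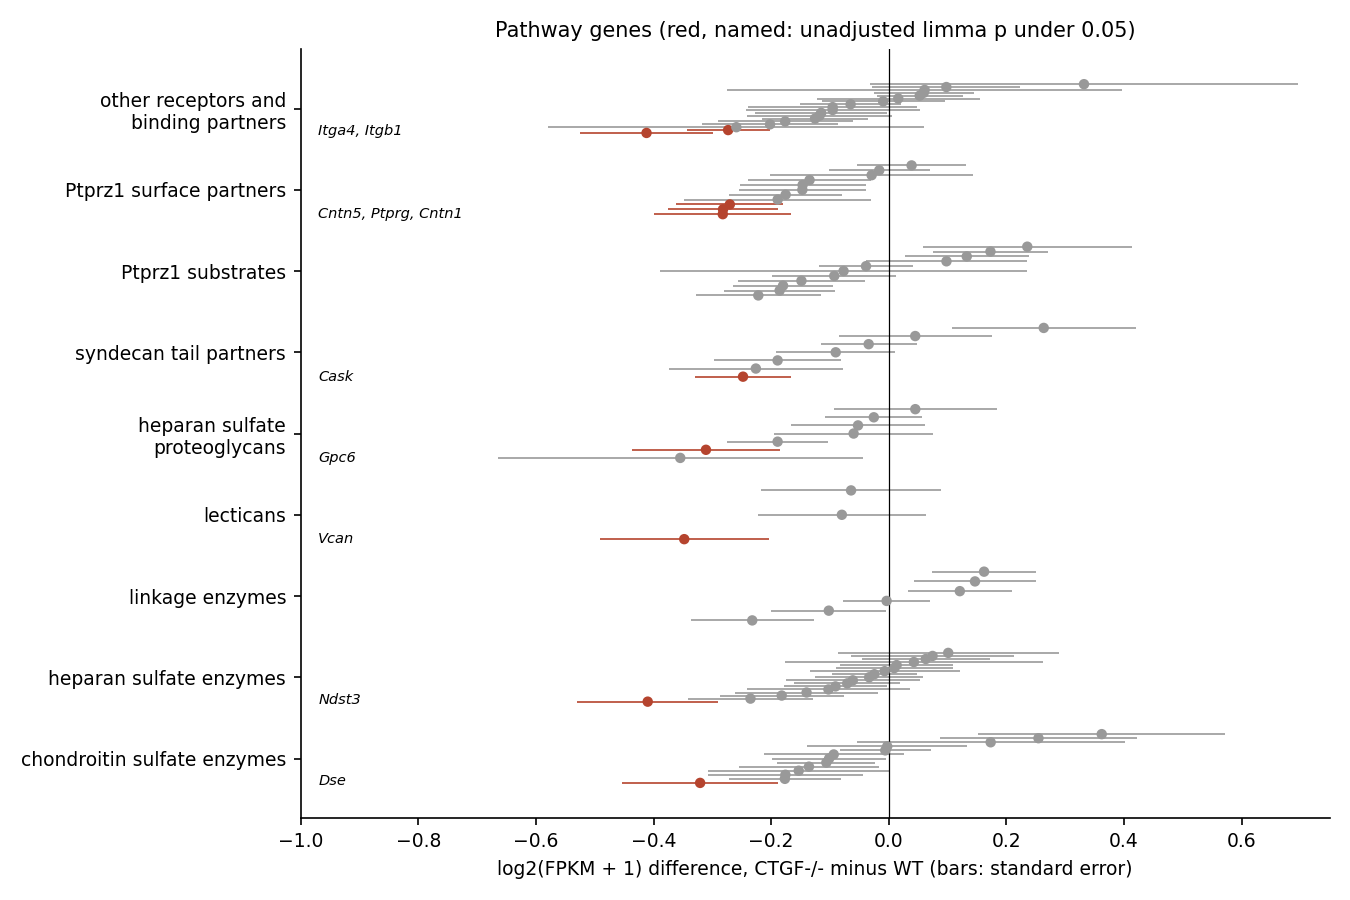
Difference in log2(FPKM + 1), CTGF-/- minus WT, of the 93 pathway genes tested, by list from receptors at the top to chondroitin sulfate enzymes at the bottom; points are limma estimates and bars their standard errors. The 10 genes with an unadjusted p under 0.05 are red and named at the left, all of them below 0, and 0 of the 93 passed an adjusted p of 0.05.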

How the data were processed

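Per the submitters' processing notes, reads were checked with FastQC, trimmed with cutadapt, aligned to GRCm38 with HISAT2 and quantified with StringTie; per the series' design text, Ballgown gave FPKM. Their versions are not stated. The authors deposited FPKM per gene and per transcript, relative to feature length and library total, so sequencing depth is unknown and no counting interval is given. Per the file headers, the authors' lists also hold log2 and linear fold changes with p-values and q-values; here they served only to look up the isoforms in the list of 263 lower transcripts.

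Genes and transcripts with a mean of at least 0.5 FPKM were tested with limma 3.58.1 (R 4.3.3; lmFit, then eBayes with a variance trend) on log2(FPKM + 1). This scale understates changes of weakly expressed genes. All 4 genes and all 10 isoforms passed that filter. P-values were adjusted by Benjamini and Hochberg's method over 12915 genes or 25082 transcripts, with a threshold of 0.05. On simulated data, the fit called 44 of 50 genes with a log2 difference of −1 and 39 of 50 with 1, and 8 of 12715 unchanged genes. Only well-expressed genes were shifted, and by more than any of the 4 genes or the pathway genes differed. These counts therefore do not show how often such smaller differences would be called. Exons, coding regions and sequences came from GENCODE M21 on GRCm38.

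The 4 genes and all lists were chosen with earlier results of these data known. Named are all isoforms of the 4 genes, Ctgf, examples of the 2 genes with the smallest p and the most abundant gene of each pathway list, the 3 genes most like each of the 4, and examples of the marker lists; 1 progenitor marker and 1 rod marker are not reported here and are left out of their lists. Alternatives were another pseudocount and other filters, scalings and variance models, each library left out in turn, and a replicate block.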

Additional observations from a re-analysis of the deposited data

How the results depend on the processing

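Scaling the libraries to equal FPKM totals moved the log2 difference of Ptn to −0.34 and that of Ptprz1 to −0.19. Both moved by more than the SD between replicates, 0.0784 for Ptn and 0.0466 for Ptprz1, which is not limma's SE. The median of all genes was then −0.09. Summed isoform FPKM, an alternative chosen after seeing the data, gave −0.26 for Ptn, −0.11 for Mdk, −0.13 for Ptprz1 and 0.07 for Sdc3.

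Leaving out each library in turn gave −0.30 to −0.19 for Ptn, −0.33 to −0.13 for Mdk, −0.14 to −0.09 for Ptprz1, −0.05 to 0.14 for Sdc3 and −32.0 to −20.0 percentage points for the Mdk-201 share. Of the pathway genes, 4 to 11 then had an unadjusted p under 0.05, against 10 with all libraries and 17 with equal FPKM totals. The genes past the threshold numbered 2 to 9 instead of 6, and the transcripts 1 to 7 instead of 6. A linear model without moderation gave 1 gene and 2 transcripts.

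Replicates with the same number did not deviate together: the correlations of their deviations were 0.0129, 0.171 and −0.156, and not every library correlated best with its own number. With the replicate number as a block, limma gave 2 genes and 0 transcripts past the threshold, with 1093 transcripts at an unadjusted p under 0.05, and 10 pathway genes at an unadjusted p under 0.05. The cause of these moves was not tested. The tables hold no counts, so the reads behind the low isoform values of Mdk and Ptprz1 are unknown.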

Other observations

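Of the 4110 genes with at least 2 listed isoforms and a mean of at least 5 FPKM, 534 (12.99%) had log2 differences of opposite sign in the gene FPKM and in the summed isoform FPKM. The median gap between the scales was 0.03 (log2), and that of Mdk was 0.12. Replicate 3 of CTGF-/- and replicate 3 of WT had nearly the same Mdk-201 share, 18.1% and 17.3%, although CTGF-/- replicate 3 held 21.5% of its Mdk in Mdk-204 and WT replicate 3 held 2.05%.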
